A study of Xenopus laevis with 72 samples.

Results

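The genes described here are the translation initiation and elongation factors of Xenopus laevis, taken as every gene row whose name begins with eif or eef followed directly by a digit. This rule found 94 of 39668 rows, 75 named eif and 19 named eef. Xenopus laevis is an allotetraploid frog whose chromosomes come in a long (L) and a short (S) set, and the related copies of a gene on them (homeologs) were kept apart: 49 of the row names end in L and 45 in S. The 94 rows carry 60 base names, of which 34 have both endings, 15 only L and 11 only S. L and S are used here as the names give them, and RefSeq places eif4e2.L, counted as L, on chromosome 3S. All 94 rows were matched by name to RefSeq, where eif2b2.S is a long non-coding RNA and the others are protein-coding.

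Expression was measured by RNA sequencing of whole embryos in 72 libraries, each of 3 pooled embryos. The 4 groups were non-injected embryos (NI Ctrl) and embryos injected at the 1-cell stage with 9.2 nl of a 1 mM morpholino, either the standard control (Ctrl MO) or a translation-blocking antisense oligomer against both homeologs of cxxc1 (Cxxc1 MO) or of kmt2b (Kmt2b MO), which encode parts of histone H3 lysine 4 methyltransferase complexes. Each group was sampled at 5.5, 6.5 and 7.5 hours post fertilisation (hpf), across the onset of zygotic transcription, with 3 libraries from each of 2 frogs. The frogs are the biological replicates I and II, and the 3 libraries of a frog, which the study treats as technical replicates, share their mother. The p-values, within a frog or over both frogs, therefore measure the spread between these libraries and not replication over animals. The labels name no genetic modification of the frogs. A morpholino reaches the whole embryo and blocks translation of its target, so the target's mRNA level does not check the knockdown.

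Translation begins when the small ribosomal subunit, carrying the initiator tRNA brought by eif2, is recruited to the capped 5′ end of an mRNA by the eif4 group and eif3, and scans to a start codon chosen with eif1, eif1a and eif5. Elongation then depends on eef1a, which delivers aminoacyl-tRNA to the ribosome, on the exchange subunits that recharge eef1a with GTP, and on eef2, which moves the ribosome along. An early frog embryo starts with maternal mRNA and protein for this machinery, stores much mRNA in an untranslated state, and replaces maternal by zygotic transcripts over the hours sampled here. The oocyte form of eef1a (eef1a1o) is known in Xenopus for its expression in oocytes, and eef1a1 for its expression in somatic cells.

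Values are TPM, the abundance of a transcript after scaling for its length and to a fixed total for each library. No counts were given, so the depth is unknown, and in whole embryos fewer cells of a type and less RNA per cell cannot be told apart. The composition of the libraries shifted with time. Protein-coding rows held 72.1 to 88.4% of all TPM at 5.5 hpf and 47.9 to 68.8% at 7.5 hpf, while tRNA rows went from 0.0214 to 0.261% up to 3.42 to 25.1%. Libraries of the same group, time and frog correlated at 0.941 to 0.986 (72 pairs, log2 scale, across genes), and no 2 libraries were identical. The summed level of 10 rows of maternal mRNAs was 2508 to 3283 TPM at 5.5 hpf and 1200 to 2144 TPM at 7.5 hpf. Markers of blood cells summed to 11.3 to 52.5 TPM, and markers of follicle and stroma cells to at most 0.348 TPM.

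The factors were abundant. Of the 94 rows, 90 averaged at least 1 TPM in each frog and were tested among 19544 such genes. Their median level over the 72 libraries was 60.3 TPM, against 19.0 TPM for all tested genes, and 36 of them lay in the top 10% of genes and 79 above the median. The 4 rows not tested were eef1a2.L and eef1a2.S, the form known from muscle and nerve cells in mammals, at 0.0141 and 0.0182 TPM, eif4a2.L at 0.197 TPM and eif2b1.S at 0.800 TPM. The highest row was eif1.L, a factor of start codon choice, at 529 TPM, followed by its relative eif1b.L at 332 TPM and by eef1b2.L, an exchange subunit, at 308 TPM. The helicase row eif4a1.S averaged 289 TPM, and the lowest tested row averaged 1.54 TPM.

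Elongation factor 1 alpha was represented by 4 expressed rows. By the RefSeq annotation of assembly Xenopus_laevis_v10.1, eef1a1o.L lies on chromosome 2L from 94468698 to 94475298 and eef1a1o.S on chromosome 2S from 82679654 to 82683857. The eef1a1.L gene lies on chromosome 5L from 96185517 to 96216774 and eef1a1.S on chromosome 5S from 78393915 to 78416738. Over all libraries the order of the levels was eef1a1o.S at 210 TPM, eef1a1o.L at 166 TPM, eef1a1.S at 122 TPM and eef1a1.L at 106 TPM. The ranges of all 4 rows overlapped over the libraries, from 126 to 269 TPM for eef1a1o.S down to 64.5 to 138 TPM for eef1a1.L. These genes are similar in sequence, so that reads may have been split uncertainly between them.

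In NI Ctrl embryos eef1a1.S read 127, 120 and 109 TPM at 5.5 hpf in frog I and 127, 119 and 107 TPM in frog II. At 7.5 hpf it read 137, 141 and 128 TPM in frog I and 178, 148 and 145 TPM in frog II. All 6 later libraries lay above all 6 earlier ones, and this was the only factor that rose in both frogs. The log2 change was 0.19 (SE 0.070) in frog I and 0.41 (SE 0.11) in frog II, with Benjamini-Hochberg adjusted p = 0.0288 and 0.00503 in limma. The call rests on few libraries: without NI Ctrl library I-2 or I-3 of 5.5 hpf, or I-1 or I-2 of 7.5 hpf, the adjusted p of eef1a1.S in frog I in limma was 0.0537, 0.111, 0.0689 and 0.0859.

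The other copy, eef1a1.L, read 128, 104 and 101 TPM in frog I and 112, 130 and 95.2 TPM in frog II at 5.5 hpf in NI Ctrl. At 7.5 hpf it read 88.9, 92.7 and 82.5 TPM in frog I and 111, 103 and 101 TPM in frog II. The time points separated in frog I and overlapped in frog II, and eef1a1.L did not pass in both frogs (log2 change -0.32 and -0.09, limma adjusted p = 0.00891 and 0.548).

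The oocyte form eef1a1o.L fell in both frogs, where the median log2 change of all tested genes was -0.71 in frog I and -1.13 in frog II. It read 179, 196 and 191 TPM in frog I and 196, 209 and 165 TPM in frog II at 5.5 hpf in NI Ctrl, and 104, 116 and 103 TPM and 95.2, 103 and 95.9 TPM at 7.5 hpf. Every 7.5 hpf library lay below every 5.5 hpf library, and the log2 change was -0.81 (SE 0.072) in frog I and -0.94 (SE 0.11) in frog II, with limma adjusted p = 5.17e-06 and 1.23e-05. Its S copy did not pass in both frogs. The row eef1a1o.S read 221, 219 and 224 TPM in frog I and 234, 236 and 182 TPM in frog II at 5.5 hpf, then 177, 192 and 156 TPM and 216, 206 and 195 TPM. The time points of eef1a1o.S overlapped in frog II, where its log2 change was -0.07 (limma adjusted p = 0.616), against -0.34 in frog I (limma adjusted p = 0.00323). Over the 4 groups and both frogs eef1a1o.L lay -0.10 to 0.19 from the median change of all genes. The row eef1a1o.S lay 0.09 to 1.06 above that median. After each library was centred on its median gene, 3 of the 4 rows rose in NI Ctrl and 0 fell. Of all genes 19.2% rose and 39.1% fell on that scale in NI Ctrl. In each of Ctrl MO, Cxxc1 MO and Kmt2b MO 1 of the 4 rows rose and 0 fell. There 18.8, 17.7 and 18.8% of all genes rose and 37.4, 38.5 and 36.4% fell.

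**Figure D1:**
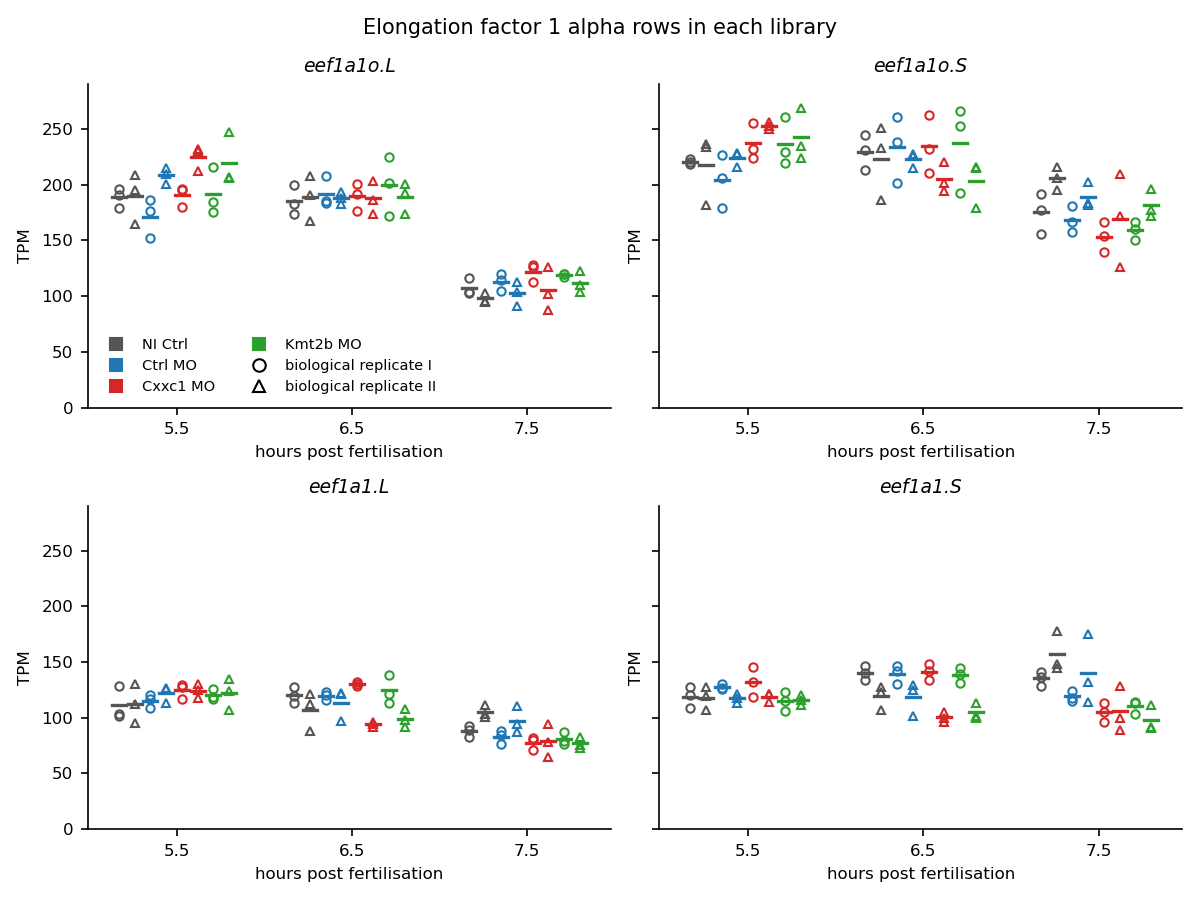
Level in TPM of the 4 expressed elongation factor 1 alpha rows in each of the 72 libraries against hours post fertilisation, 1 panel a row; colours mark the injection group, circles frog I, triangles frog II and bars the mean of 3 libraries. Every NI Ctrl library of eef1a1o.L lies below its 5.5 hpf level at 7.5 hpf, while eef1a1.S in NI Ctrl lies at 128 to 178 TPM at 7.5 hpf against 107 to 127 TPM at 5.5 hpf.

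The share of eef1a1 in the summed level of the 4 rows was taken as a measure that does not depend on the total of a library. In NI Ctrl it was 38.9, 35.0 and 33.7% in frog I and 35.8, 35.9 and 36.8% in frog II at 5.5 hpf. At 7.5 hpf it was 44.5, 43.1 and 44.8% in frog I and 48.2, 44.9 and 45.8% in frog II. No later library overlapped an earlier one, and eef1a1o remained the larger part in all of them. At 6.5 hpf the NI Ctrl mean was 38.6% ± 0.850 (SD, n = 3) in frog I and 35.4% ± 0.229 (SD, n = 3) in frog II.

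The difference between the log2 sums of eef1a1 and eef1a1o changed by 0.55 from 5.5 to 7.5 hpf in NI Ctrl, by 0.50 in frog I and 0.60 in frog II. An exact permutation test over libraries within frogs (two-sided) gave p = 0.005, the smallest that its 400 arrangements allow, and 0.0167 after Benjamini-Hochberg adjustment over the 10 comparisons of this difference. With the L copies alone this eef1a1 change was 0.67 (adjusted exact permutation p = 0.0125). With the S copies alone it was 0.50 with an adjusted exact permutation p of 0.05, which is not under the threshold. A comparison that alone reaches the smallest p of 0.005 cannot adjust below 0.05 over the 10 comparisons. The adjusted p therefore does not decide whether the S copies changed.

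At 7.5 hpf the share of eef1a1 was lower in both knockdowns than in Ctrl MO. In Ctrl MO it was 41.8, 41.4 and 42.2% in frog I and 44.0, 42.4 and 47.6% in frog II. In Cxxc1 MO it was 39.8, 39.0 and 40.7% in frog I and 39.5, 41.7 and 39.9% in frog II, and in Kmt2b MO 40.3, 41.1 and 40.5% in frog I and 35.2, 40.0 and 36.7% in frog II. Neither knockdown overlapped with Ctrl MO in either frog, and the 2 comparisons share the Ctrl MO libraries. The log2 difference between eef1a1 and eef1a1o, as knockdown minus Ctrl MO, was -0.18 for Cxxc1 MO (-0.12 in frog I, -0.25 in frog II) and -0.25 for Kmt2b MO (-0.07 in frog I, -0.44 in frog II). Each had an exact permutation p = 0.005, the smallest possible, and 0.0167 after adjustment over the 10 comparisons.

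With the L copies alone the eef1a1 to eef1a1o difference was -0.27 for Cxxc1 MO and -0.29 for Kmt2b MO, each with an adjusted exact permutation p of 0.0125. With the S copies alone Cxxc1 MO differed by -0.13 and Kmt2b MO by -0.24, and the adjusted exact permutation p was 0.33 and 0.113. Without Cxxc1 MO library II-1 or II-3 the eef1a1 difference of Cxxc1 MO was -0.17 or -0.18 with an adjusted exact permutation p of 0.05. Ctrl MO against NI Ctrl at 7.5 hpf gave -0.12, with an exact permutation p = 0.065 and 0.108 after adjustment. This last comparison passed, at -0.16 with an adjusted exact permutation p of 0.0333, without Ctrl MO library II-3. At 5.5 hpf Cxxc1 MO differed from Ctrl MO by -0.12 and Kmt2b MO by -0.17, with exact permutation p = 0.06 and 0.055, and the 3 comparisons at 6.5 hpf gave exact permutation p-values of 0.45 to 0.955.

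Taken by single rows, none of these differences passed the test across all genes in the fit by time point. The row eef1a1.S at 7.5 hpf was lower by -0.29 on the log2 scale in Cxxc1 MO (limma adjusted p = 0.394) and by -0.31 in Kmt2b MO (limma adjusted p = 0.186). With all 72 libraries in the fit eef1a1.S passed in both, with limma adjusted p = 0.0244 for Cxxc1 MO and 0.00694 for Kmt2b MO. In Kmt2b MO eef1a1.S also passed after centring on the median gene (limma adjusted p = 0.0485) and on protein-coding TPM (0.0355). A list of 19 rows of genes first transcribed in the embryo was summed in the same libraries. Its level at 7.5 hpf was 622 to 994 TPM in NI Ctrl, 538 to 1076 TPM in Ctrl MO, 397 to 768 TPM in Cxxc1 MO and 424 to 658 TPM in Kmt2b MO, so that the groups overlapped, and none of its rows was at 0 in all libraries. Its part in the eef1a1 result was not tested.

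**Figure D2:**
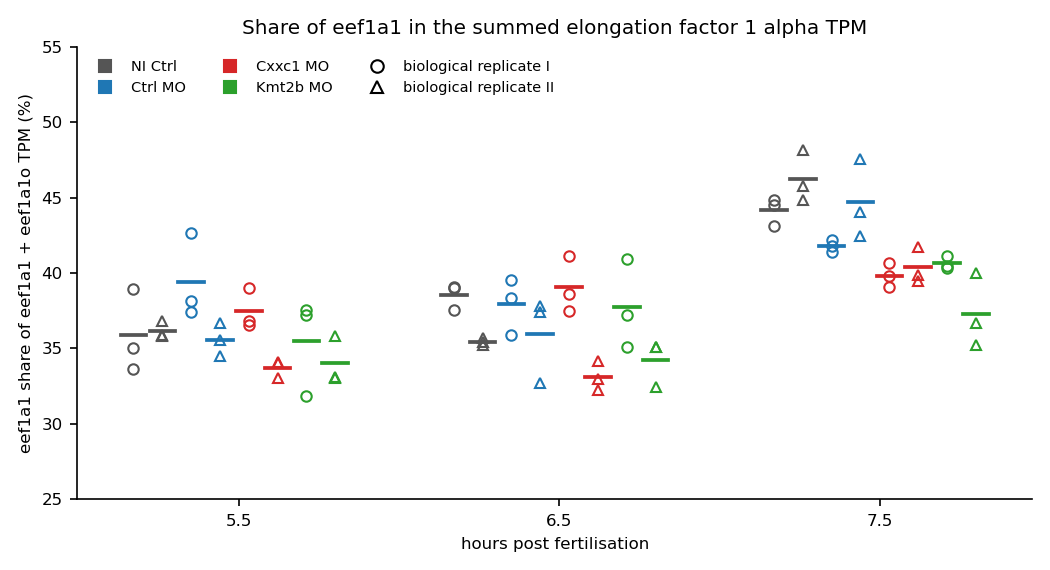
Share of eef1a1 (L and S) in the summed TPM of eef1a1 and eef1a1o, in percent, for each library against hours post fertilisation; the axis runs from 25 to 55%, colours mark the injection group, circles frog I, triangles frog II and bars the mean of 3 libraries. At 7.5 hpf NI Ctrl lies at 43.1 to 48.2%, Ctrl MO at 41.4 to 47.6%, Cxxc1 MO at 39.0 to 41.7% and Kmt2b MO at 35.2 to 41.1%.

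Across all 90 tested factors, nearly all calls fell in the second of the 2 hours. A factor was called when its limma adjusted p was under 0.05 in both frogs in the same direction. From 5.5 to 6.5 hpf no factor was called in NI Ctrl, Cxxc1 MO or Kmt2b MO, where 1.87, 1.62 and 1.4% of all genes rose and 0.046, 0.133 and 0.0307% fell. The median log2 change of all tested genes in NI Ctrl was then 0.10 in frog I and -0.20 in frog II. Of the 90 factors 20 had a negative change in frog I and 79 in frog II. The median of all genes was also positive in frog I and negative in frog II in the other groups. A call needs the same direction in both frogs, so the lack of calls does not show that the factors stood still. In Ctrl MO eef1b2.L rose in this hour (2.32% of all genes rose), from 209 to 292 TPM in frog I and from 274 to 320 TPM in frog II. From 6.5 to 7.5 hpf 76 factors fell in NI Ctrl, where 73% of all genes fell, and 81, 80 and 81 fell in Ctrl MO, Cxxc1 MO and Kmt2b MO, where 74.3, 72.9 and 72.6% of all genes fell. No factor rose in this hour in any group, where 9.75, 9.89, 10 and 10.1% of all genes rose in NI Ctrl, Ctrl MO, Cxxc1 MO and Kmt2b MO.

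From 5.5 to 7.5 hpf 77 of the 90 factors fell in NI Ctrl, 1 rose and 12 did not pass, against 70.5% of all genes that fell and 11.3% that rose. In Ctrl MO, Cxxc1 MO and Kmt2b MO 78, 80 and 79 fell and none rose, against 71, 72.6 and 70.4% of all genes that fell and 11.7, 10.4 and 11.2% that rose. The median log2 change of the factors in NI Ctrl was -0.71 in frog I and -1.09 in frog II, and that of all tested genes was -0.71 and -1.13. Changes are therefore given also relative to the median of all tested genes. In NI Ctrl the summed level of the 94 rows was 1.15 and 1.13% of the protein-coding TPM at 5.5 hpf and 0.918 and 0.961% at 7.5 hpf in the 2 frogs.

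The counts depended on the scale. After each library was centred on its median gene, 12 factors rose and 34 fell in NI Ctrl (all genes 19.2% and 39.1%), 10 and 34 in Ctrl MO (18.8% and 37.4%), 10 and 39 in Cxxc1 MO (17.7% and 38.5%) and 13 and 36 in Kmt2b MO (18.8% and 36.4%). From 6.5 to 7.5 hpf the centred counts in NI Ctrl were 11 and 35 (16.2% and 38.1%). Centring removed the median level of each library and not the median change of all genes. From 5.5 to 7.5 hpf in NI Ctrl that median change was still -0.18 in frog I and -0.21 in frog II. A row that fell after centring therefore need not have fallen more than the median change. With TPM rescaled to protein-coding rows, 4 factors rose in NI Ctrl, eif3g.L, eef1a1.S, eif3k.S and eef1b2.L, and 62 fell (all genes 6.59% and 72.5%). The changes of the 90 factors were alike in the 2 frogs, with r = 0.86 across the factors, which are not independent replicates. Of the 90 factors 75 fell in all 4 groups and 9 in none, against 65.8 and 23.9% of all genes.

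**Figure D3:**
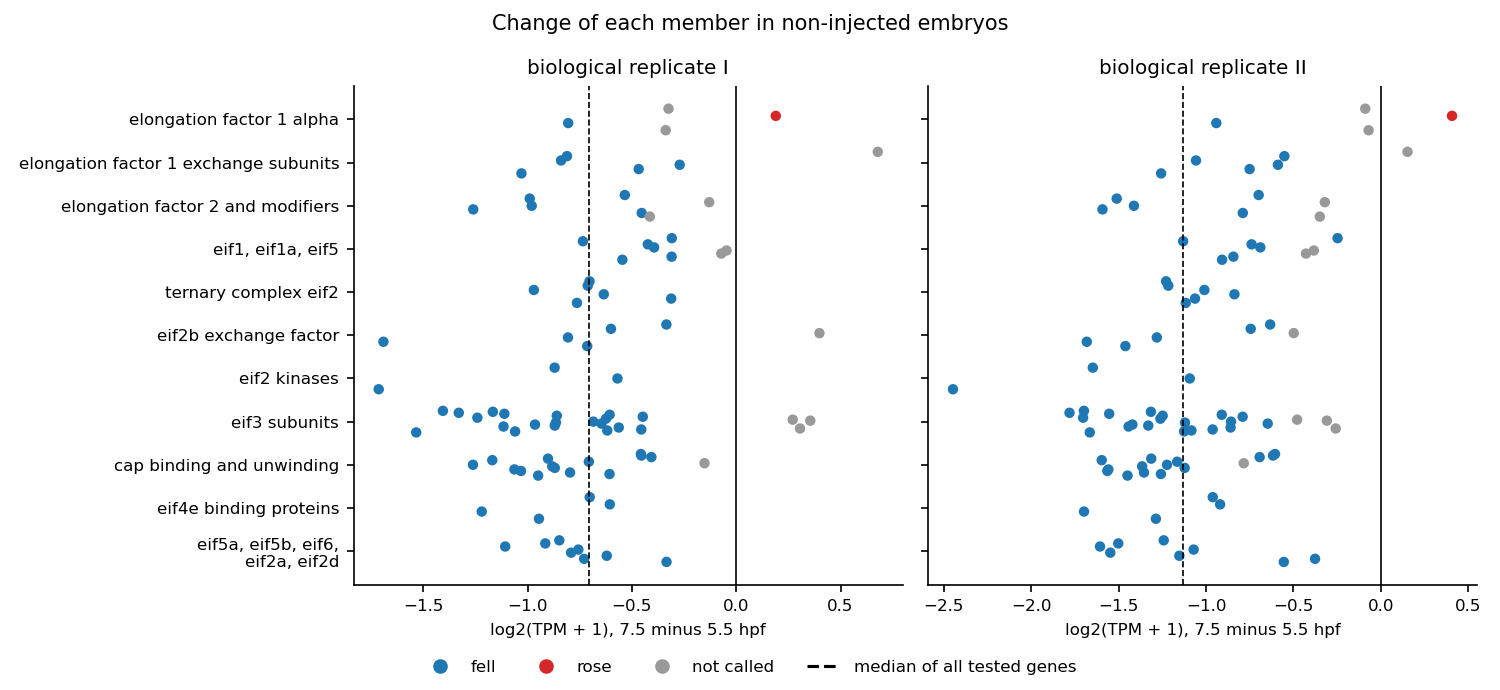
Log2 change from 5.5 to 7.5 hpf of each of the 90 tested factors in NI Ctrl on the log2(TPM + 1) scale, ordered by role, 1 panel a frog; blue points fell and red rose in both frogs, grey points were not called, and the dashed line is the median of all tested genes. The dashed line lies at -0.71 in frog I and -1.13 in frog II, and eef1a1.S is the only red point.

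The counts by role that follow stand beside the 70.5% of all genes that fell and the 11.3% that rose in NI Ctrl, and after centring beside 39.1% and 19.2%. Of the 15 rows grouped by name with cap binding and unwinding 14 fell, and 10 after centring, with a median change of -0.16 relative to all genes. This grouping also takes in eif4a3.1.S and eif4g2.S, so these values are not of cap binding and unwinding alone. The scaffold row eif4g1.L, which ties the cap-binding protein to the helicase, went from 51.1 to 24.0 TPM in frog I and from 58.1 to 19.0 TPM in frog II. The helicase cofactor eif4b.S went from 52.2 to 22.6 TPM and from 54.1 to 17.2 TPM, or -0.46 relative to all genes in each frog. The helicase itself lost less. In NI Ctrl eif4a1.S read 358, 323 and 328 TPM in frog I and 327, 315 and 275 TPM in frog II at 5.5 hpf, and 251, 244 and 240 TPM and 209, 192 and 194 TPM at 7.5 hpf. The time points of eif4a1.S did not overlap, and its log2 changes were -0.45 and -0.62 (limma adjusted p = 4.11e-05 and 4.33e-05). Relative to all genes they were 0.25 and 0.52, and after centring on the median gene eif4a1.S and eif4a1.L both turned to a mean of 0.19. The only row of this role that did not pass was eif4e1b.S, named for the germline form of the cap-binding protein, at log2 changes of -0.15 and -0.78.

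All 4 eif4e binding proteins fell, and 2 after centring. The row eif4enif1.L, a protein that binds eif4e and carries it into the nucleus, went from 124 to 52.8 TPM in frog I and from 136 to 41.3 TPM in frog II. The S copy eif4enif1.S went from 143 to 73.9 TPM and from 149 to 60.7 TPM. Both copies of eif4ebp2, a repressor that competes with the scaffold for eif4e, fell in NI Ctrl and lay 0.01 to 0.21 above the median change of all genes.

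The rows grouped by name with the factors of start codon choice had the highest median change relative to all genes among the roles in initiation. Of the 8 rows grouped with eif1, eif1a and eif5, 6 fell in NI Ctrl and that median was 0.36, while after centring 3 rose and 0 fell. The grouping by name also takes in eif1ad.L, so these values are not of eif1, eif1a and eif5 alone. The highest of all factors, eif1.L, read 569, 562 and 577 TPM in frog I and 551, 562 and 506 TPM in frog II at 5.5 hpf, and 521, 465 and 401 TPM and 465, 435 and 462 TPM at 7.5 hpf. The time points separated in each frog, and the log2 change was -0.31 and -0.25 (limma adjusted p = 0.00988 and 0.00685). This direction turned with the scale, since the mean change of eif1.L was 0.11 on protein-coding TPM and 0.45 after centring on the median gene. Its relative eif1b.L did not pass: it read 355, 326 and 318 TPM in frog I and 393, 347 and 295 TPM in frog II at 5.5 hpf, and 347, 332 and 290 TPM and 269, 265 and 253 TPM at 7.5 hpf. The 2 time points of eif1b.L overlapped in frog I and separated in frog II. The row eif5.S, which triggers GTP hydrolysis by eif2, went from 30.9 to 20.7 TPM and from 36.7 to 19.0 TPM.

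The eif2 complex, which carries the initiator tRNA, changed close to the median gene. All 6 rows fell, and 2 after centring, and their median change lay at -0.03 relative to all genes. The alpha subunit eif2s1.L, whose phosphorylation lowers initiation, went from 83.2 to 50.6 TPM in frog I and from 94.3 to 39.5 TPM in frog II.

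Of the kinases that phosphorylate this subunit 3 of 3 fell, and 2 after centring. Among them is eif2ak3.S, the kinase known as PERK that responds to unfolded protein in the endoplasmic reticulum. In NI Ctrl it read 98.0, 89.9 and 89.7 TPM in frog I and 102, 106 and 92.2 TPM in frog II at 5.5 hpf, and 27.0, 28.1 and 27.4 TPM and 14.3, 19.2 and 19.6 TPM at 7.5 hpf. The time points were far apart in both frogs, with log2 changes of -1.71 (SE 0.064) and -2.45 (SE 0.12) and limma adjusted p = 8.7e-08 and 6.74e-08. Relative to all genes eif2ak3.S changed by -1.01 and -1.31, the lowest value of any factor in either frog. The haem-regulated kinase eif2ak1.L changed by -0.16 and -0.51 relative to all genes, and eif2ak2.L, named for the kinase that senses double-stranded RNA, was at 6.55 and 8.93 TPM at 5.5 hpf and fell to 4.09 and 3.58 TPM.

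The exchange factor eif2b recharges eif2 with GTP, and 5 of its 6 tested rows fell, while after centring 1 fell and 1 rose. The row that did not fall was eif2b2.S, which RefSeq lists as a long non-coding RNA. The row eif2b4.L read 27.0, 24.4 and 24.6 TPM in frog I and 23.4, 19.7 and 18.9 TPM in frog II at 5.5 hpf, and 6.84, 7.15 and 7.45 TPM and 5.53, 5.48 and 6.20 TPM at 7.5 hpf. No libraries of the 2 time points overlapped, and the log2 change of eif2b4.L was -1.69 (SE 0.072) and -1.68 (SE 0.10), with limma adjusted p = 1.23e-07 and 2.55e-07. Relative to all genes this was -0.98 and -0.55. The other subunits eif2b3.L and eif2b5.S lay at -0.10 and -0.01 relative to all genes in frog I and at -0.15 and -0.33 in frog II.

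The eif3 complex, the scaffold on the small ribosomal subunit, had 23 tested rows, of which 20 fell and 3 did not pass in NI Ctrl, while after centring 10 fell and 3 rose. Its rows spread widely around the median of all genes. The row eif3m.S read 95.1, 82.5 and 88.1 TPM in frog I and 91.5, 90.4 and 84.8 TPM in frog II at 5.5 hpf, and 29.6, 31.5 and 28.6 TPM and 28.4, 27.5 and 26.2 TPM at 7.5 hpf. Its time points were well apart, with log2 changes of -1.53 (SE 0.077) and -1.66 (SE 0.098) and limma adjusted p = 2.44e-07 and 2.14e-07. The row eif3b.L fell from 52.0 to 20.1 TPM and from 62.7 to 17.5 TPM, and eif3j.S from 173 to 79.5 TPM and from 181 to 66.1 TPM.

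The 3 rows of eif3 that did not pass were eif3f.S, eif3g.L and eif3k.S, whose frogs went opposite ways. The row eif3f.S read 142, 134 and 125 TPM in frog I and 160, 140 and 134 TPM in frog II at 5.5 hpf, and 179, 155 and 150 TPM and 96.5, 108 and 105 TPM at 7.5 hpf. All its later libraries were higher in frog I and lower in frog II, with log2 changes of 0.27 and -0.48. Relative to all genes eif3f.S, eif3g.L and eif3k.S lay above the median in both frogs, by 0.98, 1.06 and 1.01 in frog I and by 0.65, 0.82 and 0.87 in frog II.

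All 8 rows of eif5a, eif5b, eif6, eif2a and eif2d fell in NI Ctrl, but after centring 3 of 8 fell in NI Ctrl, 1 in Ctrl MO, 4 in Cxxc1 MO and 3 in Kmt2b MO. The row eif5a.L, which carries the modified lysine hypusine and helps ribosomes through difficult peptide bonds, went from 149 to 88.0 TPM in frog I and from 160 to 75.3 TPM in frog II. The row eif6.S, which keeps the ribosomal subunits apart, went from 118 to 93.6 TPM and from 132 to 89.2 TPM and turned to a mean of 0.28 after centring on the median gene. The rows eif2d.S and eif2a.S, known from mammals as alternative carriers of initiator tRNA, went from 14.4 to 6.14 and from 5.62 to 2.52 TPM in frog I.

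Of the 6 rows grouped by name with the exchange subunits of elongation factor 1, 5 fell and eef1b2.L did not. After centring 1 fell and 1 rose. The grouping by name also takes in eef1e1.L, so these counts are not of exchange subunits alone. The guanine exchange subunit eef1b2.L read 221, 232 and 233 TPM in frog I and 292, 291 and 238 TPM in frog II at 5.5 hpf, and 380, 363 and 357 TPM and 293, 306 and 309 TPM at 7.5 hpf. All later libraries were higher than the earlier ones in both frogs, but only frog I passed, with log2 changes of 0.68 (SE 0.061) and 0.15 (SE 0.10) and limma adjusted p = 5.37e-06 and 0.172. Relative to all genes eef1b2.L changed by 1.39 and 1.29. The structural subunit eef1g went from 242 to 174 TPM and from 261 to 155 TPM for eef1g.L, which turned to 0.12 after centring, and from 148 to 71.9 TPM and from 159 to 65.5 TPM for eef1g.S.

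Of the 7 rows of elongation factor 2 and of the enzymes that modify both elongation factors, 5 fell, while after centring 3 fell and 1 rose. The translocase rows eef2.1.L and eef2.1.S went from 108 to 54.3 TPM and from 123 to 50.8 TPM in frog I, and from 138 to 50.9 TPM and from 117 to 38.0 TPM in frog II. The row eef1akmt2.S, a methyltransferase of eef1a, went from 39.3 to 19.3 TPM and from 37.4 to 12.4 TPM. The 2 rows that did not pass were eef2kmt.L and eef1akmt3.L, both methyltransferase genes.

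Over the 4 groups and both frogs, 4 rows stayed more than 0.5 below the median change of all genes in all 8 combinations, eif2ak3.S, eif2b4.L, eif3m.S and eif3e.L. The 5 rows that stayed more than 0.5 above it were eef1b2.L, eif3g.L, eif3k.S, eif3f.S and eif2b2.S. Over all genes 1.49% stayed that far below and 17.5% that far above. These 9 rows were picked by their values, so the count is a description.

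Other genes of the pathway were taken from a list of 43 base names, of which 35 were found in 55 rows and 54 rows were tested. In NI Ctrl 49 of the 54 fell and none rose from 5.5 to 7.5 hpf, against 70.5% of all genes that fell and 11.3% that rose. The median change of the list was -0.89 and -1.27 in the 2 frogs, against -0.71 and -1.13 over all genes. The rows that did not pass were both copies of rps6, a protein of the small ribosomal subunit, both copies of mcts1, which works with denr on recycled ribosomes, and denr.S. The lowest log2 change of the list in both frogs was that of mknk1.S, a kinase of eif4e, from 78.2 to 22.0 TPM in frog I and from 83.1 to 13.7 TPM in frog II.

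The control morpholino was compared with no injection first. In Ctrl MO against NI Ctrl 0 of 90 factors were called at any time point, with 0.0307% of all genes higher and 0% lower at 5.5 hpf, 0.0205 and 0.0102% at 6.5 hpf and 0.0102 and 0% at 7.5 hpf. In limma 1, 1 and 2 factors had an unadjusted p under 0.05 at the 3 times, all higher, against 7.85, 3.17 and 7.08% of all genes in either direction. Between the 2 knockdowns 0 factors were called too, where 0% of all genes were called at each time, and 3, 3 and 10 factors had an unadjusted limma p under 0.05, against 3.77, 3.05 and 3.92% of all genes. These comparisons and those below were fitted on the 24 libraries of a time point with the frog as a covariate. The fit counts the libraries of a frog as replicates (19 residual degrees of freedom), so its p-values do not stand for replication over animals. Overlap between groups is given below for rows called on the same libraries and only describes them. The share of all genes without overlap was not taken.

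At 5.5 hpf eef1b2.L was higher in both knockdowns. It read 215, 199 and 214 TPM in frog I and 286, 276 and 259 TPM in frog II in Ctrl MO. In Cxxc1 MO it read 247, 257 and 268 TPM in frog I and 343, 302 and 323 TPM in frog II, and in Kmt2b MO 249, 268 and 263 TPM and 342, 312 and 314 TPM. Neither knockdown overlapped with Ctrl MO in either frog, while the NI Ctrl libraries of frog II reached 292 TPM. The log2 difference was 0.27 (SE 0.047) in each, with limma adjusted p = 0.0115 for Cxxc1 MO and 0.00572 for Kmt2b MO. This was the only factor called in Cxxc1 MO at this time, when 0.363% of all genes were higher and 0.0153% lower.

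In Kmt2b MO eif3g.S was called too at 5.5 hpf, 2 of 90 factors higher against 0.66% of all genes higher and 0.0512% lower. The eif3g subunit binds RNA and takes part in scanning. In Ctrl MO eif3g.S read 39.3, 32.0 and 29.7 TPM in frog I and 44.5, 46.2 and 50.9 TPM in frog II, and in Kmt2b MO 43.5, 52.5 and 57.8 TPM and 63.5, 58.3 and 55.1 TPM. The groups did not overlap in either frog, and the log2 difference was 0.45 (SE 0.086, limma adjusted p = 0.0119). In Cxxc1 MO eif3g.S differed from Ctrl MO by 0.30, with limma adjusted p = 0.194. Fitted on the 2 groups alone, the Kmt2b MO call of eif3g.S had a limma adjusted p of 0.0915.

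At 6.5 hpf 1 factor was lower in Cxxc1 MO, eif2a.L, where 0.573% of all genes were higher and 0.43% lower. It read 4.08, 3.43 and 4.72 TPM in frog I and 3.05, 2.45 and 3.36 TPM in frog II in Ctrl MO, and 1.86, 2.36 and 3.05 TPM and 1.64, 1.90 and 2.57 TPM in Cxxc1 MO. The groups separated in frog I and overlapped in frog II, and the log2 difference was -0.48 (SE 0.11, limma adjusted p = 0.0301). This call is fragile at such low levels. The limma adjusted p of eif2a.L was 0.0664 without Ctrl MO I-1, 0.083 without Ctrl MO I-3, 0.0701 without Ctrl MO II-3, 0.0826 without Cxxc1 MO I-1, 0.0966 without Cxxc1 MO II-1 and 0.0738 without Cxxc1 MO II-2.

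In Kmt2b MO 2 factors were higher at 6.5 hpf, both of eif3, where 1.46% of all genes were higher and 0.788% lower. The row eif3g.L read 52.7, 55.1 and 50.9 TPM in frog I and 44.8, 46.8 and 50.0 TPM in frog II in Ctrl MO, against 61.1, 68.2 and 67.0 TPM and 55.6, 56.5 and 56.1 TPM in Kmt2b MO. The row eif3f.S read 159, 161 and 165 TPM in frog I and 146, 141 and 144 TPM in frog II in Ctrl MO, against 187, 185 and 174 TPM and 154, 179 and 172 TPM in Kmt2b MO. Neither row overlapped between the groups in either frog. The log2 difference was 0.27 (SE 0.060, limma adjusted p = 0.0132) for eif3g.L and 0.20 (SE 0.039, limma adjusted p = 0.00666) for eif3f.S. With all 72 libraries in the fit the limma adjusted p of eif3f.S was 0.118. With L and S summed eif3f was called and eif3g was not, where 1.34% of all features were higher and 0.693% lower.

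At 7.5 hpf no factor was called in Cxxc1 MO, where 5 factors and 6.76% of all genes had an unadjusted limma p under 0.05 and 0.302% of all genes were higher and 0.235% lower. In Kmt2b MO eif5.S was higher, where 1.03% of all genes were higher and 0.752% lower. It read 21.4, 17.9 and 18.7 TPM in frog I and 19.0, 15.2 and 19.4 TPM in frog II in Ctrl MO, and 27.2, 23.8 and 24.0 TPM and 27.0, 23.2 and 23.0 TPM in Kmt2b MO. The groups did not overlap in either frog, with a log2 difference of 0.39 (SE 0.085, limma adjusted p = 0.0154). Without Kmt2b MO library II-1 the limma adjusted p of eif5.S was 0.053. With L and S summed eif5 was not called in Kmt2b MO, where 0.856% of all features were higher and 0.706% lower. In Cxxc1 MO eif5.S differed by 0.25, with limma adjusted p = 0.315.

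The balance of higher and lower calls moved with the scale. After centring on the median gene, Kmt2b MO had 2 factors higher and 1 lower at 5.5 hpf (0.936 and 0.271% of all genes), 5 and 1 at 6.5 hpf (2.45 and 0.972%) and 4 and 2 at 7.5 hpf (3.19 and 2.01%). Centred Cxxc1 MO had 4 and 1 at 6.5 hpf (1.44 and 0.553%) and 1 and 1 at 7.5 hpf (1.53 and 0.916%). On protein-coding TPM at 6.5 hpf Cxxc1 MO had 1 higher and 1 lower (1.1 and 0.896%) and Kmt2b MO 4 and 1 (2.19 and 1.36%). At 7.5 hpf on that scale Cxxc1 MO had 1 and 0 (1.29 and 0.955%) and Kmt2b MO 11 higher and 1 lower, eef1a1.S (5.15 and 1.57%). With all 72 libraries in the fit, at 7.5 hpf Kmt2b MO had 7 factors higher and 1 lower (2.85 and 1.27%) and Cxxc1 MO 0 and 1 (0.86 and 0.747%), the lower one being eef1a1.S in both. No factor was called in a frog alone, where at most 0.123% of all genes were called in frog I and 0.665% in frog II. For the difference in the change from 5.5 to 7.5 hpf between a knockdown and Ctrl MO 0 factors were called, where 0% and 0.00512% of all genes differed upward and downward for Cxxc1 MO and 0.0153 and 0.133% for Kmt2b MO. In that limma fit 11 factors for Cxxc1 MO and 5 for Kmt2b MO had an unadjusted p under 0.05, against 4.77 and 4.67% of all genes.

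**Figure D4:**
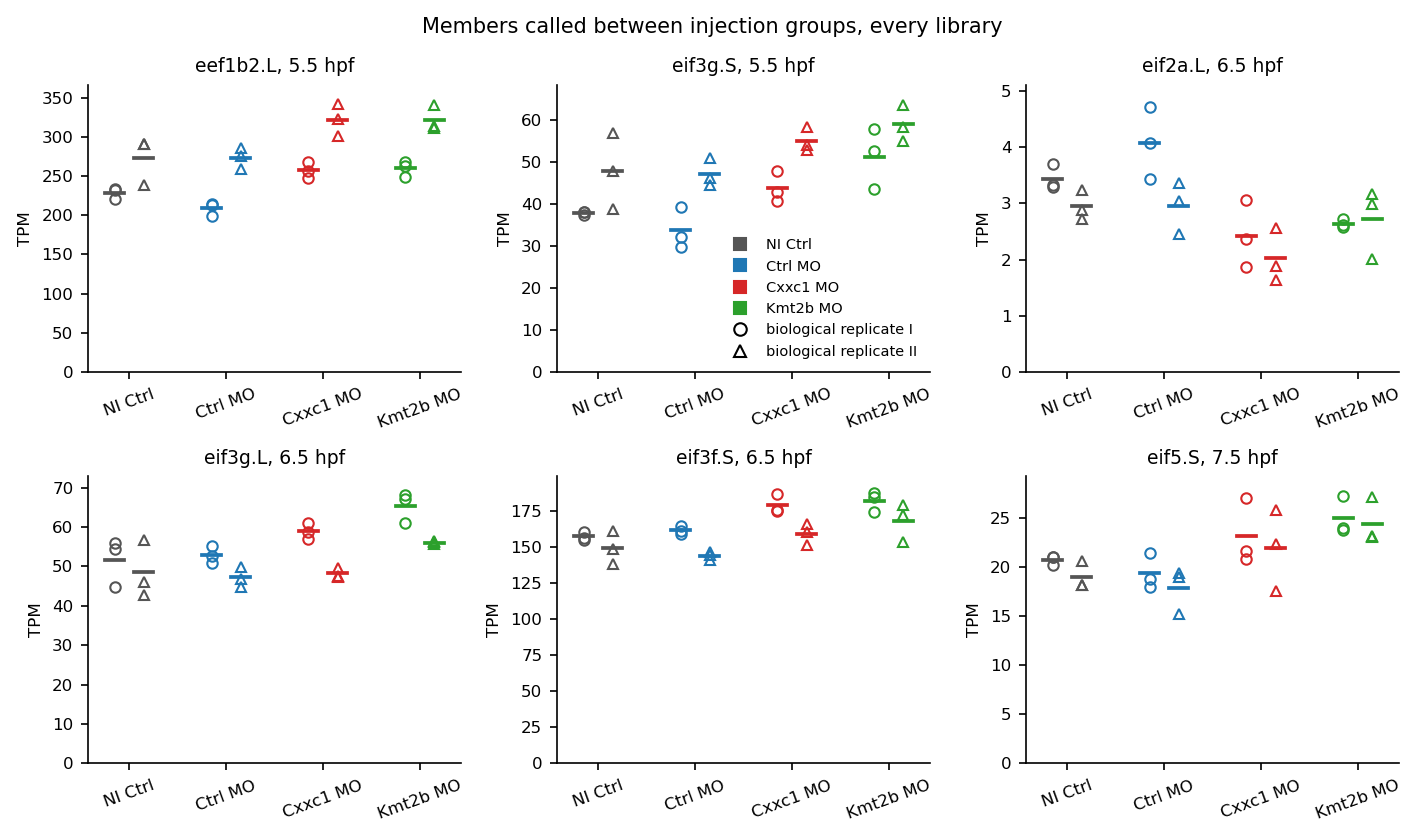
Level in TPM of the 6 factors called between a knockdown and Ctrl MO, each at the time point of its call, in every library of the 4 injection groups; circles are frog I, triangles frog II and bars the mean of 3 libraries. The groups called do not overlap in either frog for eef1b2.L, eif3g.S, eif3g.L, eif3f.S and eif5.S, and they overlap in frog II for eif2a.L. The rows were chosen by their calls on the same libraries, so this is a description.

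Genes of the pathway list moved in the same comparisons. At 5.5 hpf rps6.L, rps6.S and rack1.L, a scaffold protein of the small subunit, were the 3 of 54 rows called, all higher in both knockdowns, where 0.363% of all genes were higher in Cxxc1 MO and 0.66% in Kmt2b MO. For rack1.L the mean was 55.7 and 80.0 TPM in Ctrl MO, 92.1 and 112 TPM in Cxxc1 MO and 96.5 and 111 TPM in Kmt2b MO in the 2 frogs, a log2 difference of 0.60 and 0.62 (limma adjusted p = 0.000865 and 0.000209). In NI Ctrl its mean was 71.9 and 81.2 TPM. The copy rack1.S, at 139 and 164 TPM in Ctrl MO, was not called in either knockdown. At 7.5 hpf dohh.L, the enzyme that completes hypusine on eif5a, was lower in both knockdowns, where 0.235 and 0.752% of all genes were lower. It averaged 35.4 and 51.1 TPM in Ctrl MO, 23.3 and 30.9 TPM in Cxxc1 MO and 21.7 and 31.3 TPM in Kmt2b MO, a log2 difference of -0.65 and -0.69 (SE 0.11 each, limma adjusted p = 0.00392 and 0.000898). In Kmt2b MO at 7.5 hpf abce1.L, which recycles ribosomes, was lower too, by -0.35 (limma adjusted p = 0.0475), and rps6.L and mcts1.S were higher by 0.48 and 0.34 (limma adjusted p = 0.0267 and 0.047), where 1.03% of all genes were higher. The other copies abce1.S, rps6.S and mcts1.L were not called there. At 6.5 hpf dohh.L was lower and rps6.L higher in both knockdowns, and abce1.L was lower in Kmt2b MO, where 0.43 and 0.788% of all genes were lower and 0.573 and 1.46% higher in Cxxc1 MO and Kmt2b MO. The substrate rows eif5a.L and eif5a.S were not called in either knockdown in the fit used above. In Kmt2b MO at 7.5 hpf eif5a.L was higher on protein-coding TPM and with all 72 libraries (5.15 and 2.85% of all genes higher). It was also called after centring on the median gene.

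Homeologs were compared in 32 pairs of factors among 4327 pairs of genes in which both copies were tested. The L copy was higher on average in 14 pairs and the S copy in 18, and 20 pairs kept 1 sign in all 72 libraries. Over all pairs the L copy was higher in 52.3%, and 64.9% kept 1 sign. The median distance between copies was 0.43 on the log2 scale, against 0.68 over all pairs. The widest gaps in favour of L were those of eef1d, a guanine exchange subunit, at 60.8 against 9.24 TPM, and eif5a at 128 against 24.3 TPM. They were followed by eif2b2, eef1g and eif3l, at 1.40, 0.89 and 0.85 on the log2 scale. The widest in favour of S were eif6 at 42.8 against 119 TPM, eif4h at 20.5 against 59.9 TPM and eif3k at 31.0 against 85.7 TPM, followed by eif3c and eif4ebp2 at -1.13 and -0.96. Reads of similar copies may have been split between them, so each pair's balance is uncertain.

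The balance shifted over time in 13 of the 32 pairs in NI Ctrl, toward L in 6 and toward S in 7, where 11.2 and 11.1% of all pairs shifted toward L and S. Among the pairs called, by the mean of the 2 frogs, the largest shift toward L was that of eif3g, from 54.0 to 71.1% L in frog I and from 50.0 to 59.6% in frog II, with log2 changes of 1.04 and 0.55. On the same measure the largest toward S was that of eif3k, from 31.4 to 19.8% and from 28.1 to 20.1% L, with changes of -0.87 and -0.60, while in frog II alone eef1a1o shifted further, by -0.87. Both elongation factor 1 alpha genes moved toward S, eef1a1 from 48.3 to 39.4% and from 48.8 to 40.1% L, and eef1a1o from 46.1 to 38.1% and from 46.6 to 32.3% L. In limma on the pairs all these changes had an adjusted p under 0.05 in both frogs.

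The other pairs that shifted toward L were eef1g, eif3m, eif3c, eif4b and eef2.1, and those that shifted toward S were eif3e, eif4enif1, eif3a and eif3b. The shifts ranged from 0.18 for eef2.1 in frog II to 0.56 for eef1g in frog I toward L, and from -0.22 for eif3b in frog I to -0.62 for eif3e in frog I toward S. In Ctrl MO 4 pairs shifted toward L and 9 toward S, in Cxxc1 MO 6 and 9 and in Kmt2b MO 6 and 5, where 11.1 and 11.3%, 10.7 and 10.5% and 9.5 and 9.2% of all pairs did. The shifts of eef1g, eif3c, eif3g and eif3m toward L and of eef1a1, eif3a, eif3e and eif3k toward S were called in all 4 groups.

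**Figure D5:**
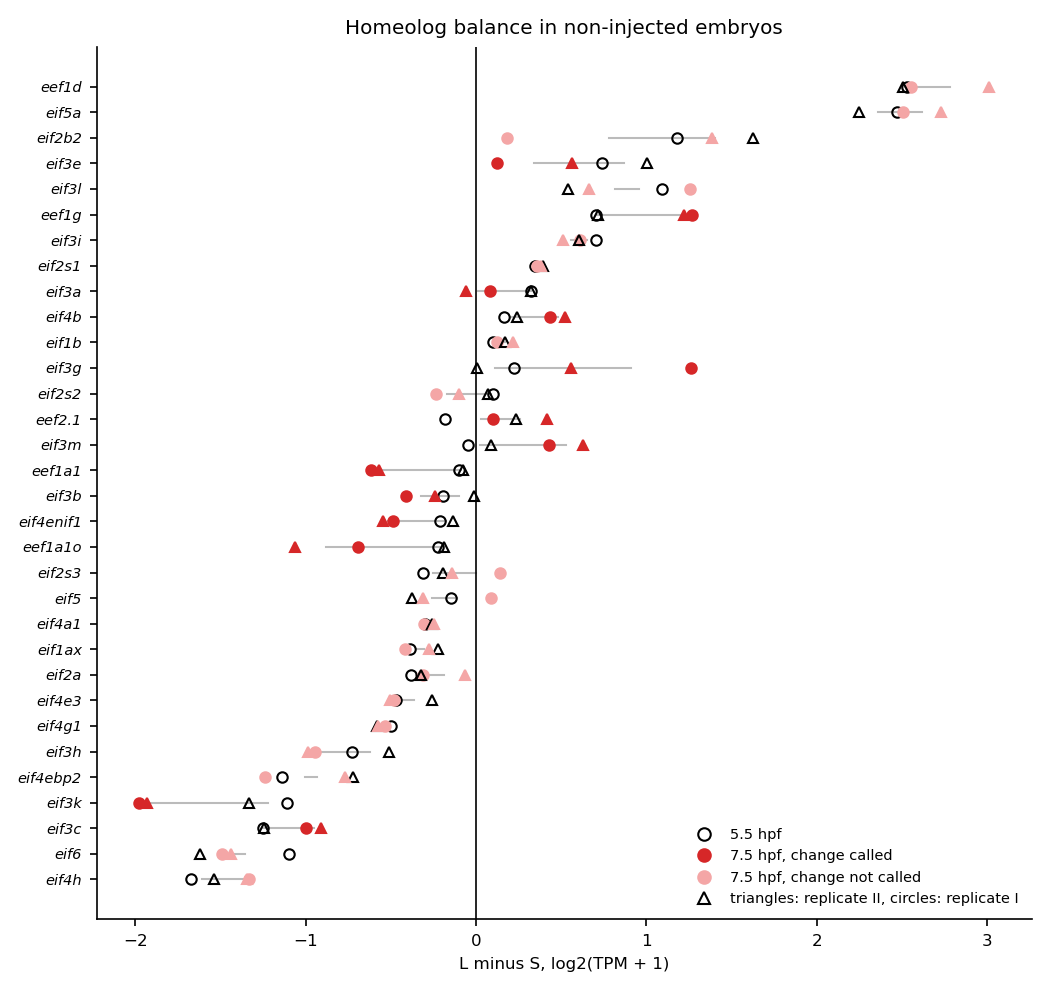
Log2 difference between the L and the S copy of 32 factor pairs in NI Ctrl, with circles for frog I and triangles for frog II. Grey lines join the means of the 2 frogs. Open black points are 5.5 hpf, filled points 7.5 hpf, red where the change was called in both frogs and pink where not. The points of eif3g move to the right and those of eif3k, eef1a1 and eef1a1o to the left.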

How the data were processed

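RNA was extracted from sets of 3 embryos, depleted of ribosomal RNA and made into strand-specific libraries (NEBNext). The authors quantified reads with kallisto (0.48 per the submitters' processing notes) and deposited gene-level TPM in a table for each biological replicate, with L and S homeologs apart. All 72 columns were matched to samples by name. TPM holds no counts, so depth and counting error are unknown, and the shares of tRNA and protein-coding rows moved the scale with time.

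Tests were run in limma 3.58.1 (R 4.3.3) on log2(TPM + 1) for genes averaging 1 TPM or more in each frog, with Benjamini-Hochberg adjustment over all genes tested and a threshold of 0.05. A fold change on this scale understates the change of low genes. Time was fitted in each frog and group alone (9 libraries), injection on the 24 libraries of a time point with the frog as a covariate, and homeologs as the L minus S difference of log2 values. The eef1a1 difference was tested by exact permutation within frogs. Fits were tested on simulated data. Python 3.11.15 with pandas 2.3.3, numpy 2.4.6, scipy 1.17.1 and matplotlib 3.10.9 was used for the rest.

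Rows named in the text were all eef1a1 and eef1a1o rows, for each role the 2 with the highest mean and the 2 called with the largest change, all rows called between injections, and the 5 pairs with the widest gap each way and the called pairs. Rows that did not pass or that stayed off the median in all groups, and genes of the pathway list, were named after their values were seen. The members and lists were chosen with earlier results of these data known. Alternatives were a pseudocount of 0.1, no filter, protein-coding TPM, centring on the median gene, L and S summed, other sets of libraries in the fit, a replicate block, and each library left out. Sequences were not used here.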

Additional observations from a re-analysis of the deposited data

Results flagged for a closer look

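In 5 of 144 groups of 6 libraries (12 rows in 12 groups), the highest or lowest library stood apart from the other 5, where chance alone would mark about 1 group in 20. In Ctrl MO at 6.5 hpf eef1a1.L was lowest in library II-1, at 97.1 TPM against 116 to 123 TPM in the others. The same row was lowest in library II-1 of NI Ctrl at 6.5 hpf, at 87.6 TPM against 112 to 127 TPM. In Ctrl MO at 7.5 hpf eef1a1.S was highest in library II-3, at 175 TPM against 114 to 132 TPM, a library that enters every knockdown comparison of eef1a1 at that time. Without it the eef1a1 to eef1a1o difference from Ctrl MO at 7.5 hpf came to -0.14 for Cxxc1 MO and -0.21 for Kmt2b MO, with adjusted exact permutation p = 0.0333 and 0.0375. In NI Ctrl at 5.5 hpf eef1a1o.S was lowest in library II-3, at 182 TPM against 219 to 236 TPM. In Cxxc1 MO at 5.5 hpf eif3g.L was highest in library II-1, at 63.6 TPM against 45.1 to 52.0 TPM.

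For 4 rows in NI Ctrl every library of 7.5 hpf lay on 1 side of every library of 5.5 hpf in frog I and on the other side in frog II. The log2 change was 0.27 in frog I and -0.48 in frog II for eif3f.S, 0.40 and -0.50 for eif2b2.S, 0.35 and -0.31 for eif3g.L, and 0.31 and -0.26 for eif3k.S. The difference between the frogs was not tested. The same check was not run over all tested genes, so the count of rows is a description only. Beside it, the median change of all tested genes was -0.71 in frog I and -1.13 in frog II.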

How the results depend on the processing

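Of the summary values, 182 of 236 were labelled unchanged under another setting, and 413 of 426 when 1 library was left out. Most of these values are counts, labelled unchanged when they stayed within a set ratio of the reported count, even if other rows made them up. Only the eef1a1 to eef1a1o differences were labelled by direction and side of the threshold. The cause of a change was not tested unless the setting's construction gives it.

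With L and S summed fewer features were tested (58). Over time 49, 49, 50 and 50 of them fell in NI Ctrl, Ctrl MO, Cxxc1 MO and Kmt2b MO. Of all features 66.6, 66.8, 68.7 and 66.5% fell. In NI Ctrl 0 of the 58 rose, against 13.8% of all features. Differing factors in Cxxc1 MO and Kmt2b MO at 6.5 hpf were then 0 and 1 (0.771 and 2.03% of all features). In Kmt2b MO at 7.5 hpf 0 differed (1.56%). After centring on the median gene 12, 10, 10 and 13 rose, against 19.2, 18.8, 17.7 and 18.8% of all genes. The 34, 34, 39 and 36 that fell stood beside 39.1, 37.4, 38.5 and 36.4%. In Cxxc1 MO and Kmt2b MO 5 and 6 differed at 6.5 hpf (1.99 and 3.42%) and 2 and 6 at 7.5 hpf (2.45 and 5.2%). On protein-coding TPM 4 rose in each group, against 6.59, 6.36, 5.84 and 6.55% of all genes. On that scale 2 and 5 differed at 6.5 hpf (2 and 3.55%) and 1 and 12 at 7.5 hpf (2.25 and 6.72%). There 1 change over time differed in Kmt2b MO, and the share over all genes was not taken for it. With all 72 libraries 1 differed in Kmt2b MO at 6.5 hpf (2.16% of all genes). At 7.5 hpf 1 and 8 then differed in Cxxc1 MO and Kmt2b MO (1.61 and 4.12%). Without a filter 0 rose in NI Ctrl (7.14% of all genes) and 0 differed in Cxxc1 MO at 6.5 hpf (0.295%). In frog I alone and in frog II alone (fewer samples) 0 differed at every time. For the knockdowns against Ctrl MO 0.0153 to 0.123% of all genes differed in frog I and 0.0665 to 0.665% in frog II. Fitted on the groups compared, 1 differed in Kmt2b MO at 5.5 hpf (0.404% of all genes). With both frogs together, chosen after seeing the data, 2 rose in NI Ctrl, against 13.9% of all genes.

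Centring turned the mean change over time in NI Ctrl to 0.52 for eef1a1.L and eef1a1o.S, 0.12 for eef1g.L, 0.45 for eif1.L, 0.51 for eif1b.L, 0.62 for eif3f.S, 0.19 for eif4a1.S and eif4a1.L and 0.28 for eif6.S, and protein-coding TPM turned eif1.L to 0.11. For the eef1a1 to eef1a1o difference, the S rows alone gave 0.50 for NI Ctrl over time, -0.13 for Cxxc1 MO and -0.24 for Kmt2b MO at 7.5 hpf, and the L rows alone -0.17 for Ctrl MO against NI Ctrl at 7.5 hpf, which then passed. These subsets were chosen after seeing the data.

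With 1 library left out, 0 to 1 factors rose in NI Ctrl, 0 to 1 differed in Cxxc1 MO at 6.5 hpf and 0 to 1 in Kmt2b MO at 7.5 hpf. The shares over all genes were not taken with a library left out. The eef1a1 to eef1a1o difference at 7.5 hpf ranged from -0.22 to -0.14 in Cxxc1 MO and from -0.16 to -0.083 in Ctrl MO against NI Ctrl. The NI Ctrl shift of the eif3b pair lost its call without 5.5 hpf library I-1, I-2 or I-3, 6.5 hpf I-1 or 7.5 hpf I-2 or I-3, that of eif4b without 5.5 hpf I-1 or 7.5 hpf I-2, and that of eef2.1 without 5.5 hpf II-2 or II-3 or 7.5 hpf II-1.

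The set numbers were not shown to pair libraries: 17 of 108 same-numbered pairs across injection groups and 6 of 72 across time points correlated above 0.1, and 43 of 108 and 36 of 72 correlated best with their own number. With the replicate block 3 factors were higher and 2 lower in Kmt2b MO at 6.5 hpf, against 1.68 and 1.06% of all genes. The differences of 0.55 in NI Ctrl, -0.18 in Cxxc1 MO and -0.25 in Kmt2b MO had an adjusted exact permutation p of 0.104. The smallest p of 64 arrangements passes after adjustment only where most of the 10 comparisons reach it. The block therefore does not decide whether these differences hold.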
